A study of Homo sapiens with 3 samples.

Results

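The guides examined here target the transporters of nucleosides and of activated sugars, and were taken as every guide whose gene symbol begins with SLC28A, SLC29A or SLC35. The pooled knockout library held 300 such guides of 30197, with 10 for each of 30 genes out of 2978. They were counted in MIA PaCa-2, an established human pancreatic ductal adenocarcinoma cell line, that had been transduced with lentiviral guides and selected in puromycin. The 3 libraries came from cells grown for 14 days in apilimod, which inhibits the lipid kinase PIKfyve, from cells grown for 14 days in the solvent DMSO, and from the initial population at day 0. The sample label gives apilimod at 200 nM, whereas another value stands in the methods of the study, so the concentration is not settled here. All 3 libraries carry the same knockout library in the same cell line, and each group is 1 pool of cells sequenced as 1 library. No difference below has a replicate check, and every test compares guides within these libraries rather than the conditions.

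Nucleosides cross the plasma membrane through the sodium-coupled concentrative transporters of the SLC28 family and through the equilibrative transporters of the SLC29 family, after which kinases of the salvage pathway trap them as nucleotides. Sugars are added to proteins and lipids inside the endoplasmic reticulum and the Golgi apparatus, whereas most activated sugars are made outside these compartments. Members of the SLC35 family carry the activated sugars inwards in exchange for nucleoside monophosphates, and related members carry the sulfate donor PAPS or ATP. In a pooled growth screen, guides against a gene that the cells need become rarer over time.

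The libraries held 25599416 counts in apilimod, 26276517 in DMSO and 24695476 in the initial population. All 300 transporter guides were detected in each library, with a median of 747 counts per guide in apilimod, 748.5 in DMSO and 721.5 in the initial population, against medians over all guides of 655, 663 and 651 counts in the same order. A guide needed 100 counts in the initial population to be scored, which 289 of the 300 did. That left 10 guides for 21 of the genes, 9 for 7 genes and 8 for the remaining 2 genes, so all 30 genes could be scored. The score of a gene is the mean over its guides of the log2 change in library-normalised counts against the initial population, and each ± is an SD over guides. Each gene's guides were set against 487 guides that cut between genes in a rank-sum test (exact and two-sided), adjusted by Benjamini-Hochberg over 2969 genes and a call at an adjusted p under 0.05. The intergenic guides gained in share over the 14 days, with medians of 0.22 in apilimod and 0.14 in DMSO on the log2 scale, while the median gene stood at -0.04 and -0.03 in the same order. A gene at a score of 0 thus lies below the intergenic guides.

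Few of the transporters were lost over the 14 days, and the shares called lower were near or below those of all genes in the library. In apilimod against the initial population, 7 of the 30 genes were lower (23.3%, where 29.0% of all genes were) and 0 were higher (0.236% of all genes). In DMSO against the initial population, 4 were lower (13.3%, where 18.9% of all genes were) and 1 was higher (3.33%, where 0.842% of all genes were). The transporter scores had a median of -0.00 in apilimod and -0.01 in DMSO, beside the gene medians above. In apilimod 66.1% of the 289 transporter guides lay below the median of the intergenic guides, as did 67.1% of all gene-targeting guides, and in DMSO the shares were 59.9% and 61.1%.

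A total of 10 transporters were called in at least 1 of these comparisons and 20 in none. The matching counts over all genes, and their split between the arms, were not taken. SLC35B1 and SLC35E4 were lower in both arms. SLC28A2, SLC29A2, SLC29A4, SLC35E2 and SLC35E3 were called lower in apilimod, SLC29A1 and SLC35C1 were called lower in DMSO, and SLC35A5 was called higher in DMSO. Both arms were measured against the same initial library, and a call in 1 arm alone does not show a difference between the arms. Guides against all genes then took the place of the intergenic guides in the test. SLC35B1 was the single transporter still lower, in apilimod and in DMSO alike. In that setting SLC35A3 and SLC35F1 were higher in apilimod, and SLC35A5 was still higher in DMSO. Against that distribution 219 of 2969 genes were lower in each arm, and 74 were higher in apilimod and 49 in DMSO.

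SLC35B1 carries ATP into the endoplasmic reticulum in exchange for ADP, which feeds the chaperones that fold secreted and membrane proteins there. The gene lies on chromosome 17 (49700934 to 49709014, minus strand, GENCODE release 44 on hg38). Its 10 guides summed to 6105 counts in apilimod and 5839 in DMSO, against 12619 in the initial population. Its score was -1.18 ± 0.72 in apilimod and -1.28 ± 0.76 in DMSO, the lowest of the 30 transporters in each arm. All 10 guides lay below the intergenic median in both arms (exact rank-sum test, adjusted p = 1.26e-09 in apilimod and 3.67e-09 in DMSO).

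The guides against SLC35B1 differed in size of effect but not in direction. The strongest in apilimod, guide 7, held 218 counts there and 351 in DMSO against 1523 in the initial population. The strongest in DMSO, guide 4, held 429 counts in apilimod and 130 in DMSO against 674 in the initial population. Guide 8 moved least in DMSO, with 859 counts in apilimod, 1256 in DMSO and 1250 in the initial population. Over the 10 guides the log2 change ran between -2.85 and -0.38 in apilimod, with a median of -1.18, and between -2.45 and -0.08 in DMSO, with a median of -1.11. Cells lost SLC35B1 guides in both arms, and the log2 ratio of apilimod over DMSO was 0.10 ± 0.79. In the difference between the arms, scaled as described below, 4 guides lay below and 6 above the intergenic median (exact rank-sum test, adjusted p = 0.864).

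Among the concentrative nucleoside transporters, SLC28A2, which prefers purine nucleosides, was called lower in apilimod. Its 8 scored guides summed to 6484 counts in apilimod and 7377 in DMSO, against 7643 in the initial population. The score was -0.35 ± 0.22 in apilimod, where 8 of 8 guides lay below the intergenic median, and -0.21 ± 0.41 in DMSO, where 7 of 8 did (exact rank-sum test, adjusted p = 0.000458 in apilimod and 0.0819 in DMSO). The shift was small and even across guides, between -0.81 and -0.10 in apilimod. The gene lies on chromosome 15 (45252234 to 45277846, plus strand) and overlaps the antisense transcript SLC28A2-AS1. The pyrimidine-preferring SLC28A1 had scores of -0.47 ± 1.13 in apilimod and -0.29 ± 0.85 in DMSO, and its 10 guides were thinly covered, with a median of 281 counts in the initial population. The broadly selective SLC28A3 had scores of -0.25 ± 0.81 and -0.10 ± 0.61 in the same order. Neither passed the test in either arm, and the spread over guides exceeded the size of the mean in each case, although SLC28A1 was called lower in apilimod with a minimum of 200 initial counts.

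Of the 4 equilibrative transporters, 2 were called lower in apilimod and 1 in DMSO, where 29.0% and 18.9% of all genes were in the same order. A group of 4 genes is too small to set these counts apart from the shares over all genes. SLC29A1, also known as ENT1, is the main route by which many cells take up nucleosides and by which the nucleoside drug gemcitabine enters them. Its 9 scored guides summed to 4057 counts in apilimod and 3296 in DMSO, against 4270 in the initial population. Its score was -0.34 ± 0.90 in apilimod, with 7 of 9 guides below the intergenic median, and it was lower in DMSO, at -0.59 ± 0.69 with 9 of 9 below (exact rank-sum test, adjusted p = 0.111 in apilimod and 0.00207 in DMSO). Of the 9 guides, 4 held more of the library in apilimod than in the initial population (guides 3, 8, 9 and 10), and the largest of these changes were those of guides 8 and 10. Guide 8 held 1189 counts in apilimod, 537 in DMSO and 536 in the initial population, and guide 10 held 375, 223 and 235 in the same order. The scaled difference between the arms did not pass the test (exact rank-sum test, adjusted p = 0.569). The unscaled log2 ratio of apilimod over DMSO was 0.25 ± 0.49. SLC29A1 occupies chromosome 6 (44219553 to 44234142, plus strand), and the PAPS transporter gene SLC35B2 begins 19953 bases beyond it.

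SLC29A2, the second equilibrative transporter of the plasma membrane, lies on chromosome 11 (66362521 to 66372214, minus strand). Its 10 guides summed to 6440 counts in apilimod and 7616 in DMSO, against 6939 in the initial population. Scores were -0.27 ± 0.65 in apilimod and 0.07 ± 0.34 in DMSO (exact rank-sum test, adjusted p = 0.0356 in apilimod and 0.662 in DMSO). The apilimod call rested on 7 of 10 guides, fewer than the 75% asked of genes described in full. It was lost under 4 of 9 other settings, among them leaving out the gene's most extreme guide. SLC29A4, a transporter of monoamines and adenosine, was lower in apilimod at -0.16 ± 0.45, with 9 of 10 guides below the intergenic median and 9217 counts there, 10341 in DMSO and 9656 in the initial population (exact rank-sum test, adjusted p = 0.0458). Its score in DMSO was -0.10 ± 0.73, the apilimod call was lost under 4 of 9 other settings, and the annotation holds 2 unprocessed pseudogene copies of it, whose match to the guides was not tested. SLC29A3, which sits in the membrane of lysosomes and late endosomes, the compartments on which PIKfyve acts, had 7966 counts in apilimod, 7973 in DMSO and 7366 in the initial population. Its scores were 0.03 ± 0.69 in apilimod and -0.01 ± 0.64 in DMSO, and the log2 ratio of apilimod over DMSO was 0.04 ± 0.34.

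Of the 7 nucleotide-sugar transporters with a known substrate, 0 were called in apilimod, where 29.0% of all genes were lower and 0.236% higher. In DMSO 1 was called lower (14.3%, where 18.9% of all genes were), and with 7 genes these shares are coarse. SLC35C1 imports GDP-fucose into the Golgi apparatus, and lies on chromosome 11 (45804072 to 45813016, plus strand). Its 10 guides summed to 6419 counts in apilimod and 5037 in DMSO, against 6417 in the initial population. Its score was -0.32 ± 1.01 in apilimod, with 7 of 10 guides below the intergenic median, and it was lower in DMSO, at -0.74 ± 0.96 with 8 of 10 below (exact rank-sum test, adjusted p = 0.0506 in apilimod and 0.00302 in DMSO). The largest log2 losses in DMSO were in guides that were rare at the start. Guide 4 held 120 counts in apilimod, 34 in DMSO and 177 in the initial population, and guide 5 held 91, 48 and 223 in the same order. Guide 7 went the other way, with 140 counts in apilimod, 456 in DMSO and 334 in the initial population.

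SLC35A2, on the X chromosome (48903180 to 48911958, minus strand), imports UDP-galactose and was split between its guides. The 10 guides summed to 6484 counts in apilimod and 7217 in DMSO, against 7336 in the initial population. Scores were -0.63 ± 1.34 in apilimod and -0.32 ± 0.79 in DMSO, neither of which passed the test (exact rank-sum test, adjusted p = 0.0764 in apilimod and 0.297 in DMSO). Guides 1 to 4 had all become rarer in both arms. Guide 2 was the extreme, with 68 counts in apilimod and 285 in DMSO against 736 in the initial population, and guide 1 held 112, 229 and 444 in the same order. Guides 5, 8 and 9 had become more frequent in both arms, so the gene mean summarised guides of opposite sign.

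SLC35A3, an importer of UDP-N-acetylglucosamine on chromosome 1 (99969351 to 100035634, plus strand), had the highest apilimod score of the transporters. Its 9 scored guides summed to 10706 counts in apilimod and 9138 in DMSO, against 6400 in the initial population. The score was 0.79 ± 0.78 in apilimod, with 2 of 9 guides below the intergenic median, and 0.33 ± 0.56 in DMSO, with 3 below (exact rank-sum test, adjusted p = 0.113 in apilimod and 0.375 in DMSO). The largest apilimod changes were those of guide 6, with 2198 counts in apilimod, 569 in DMSO and 555 in the initial population, and of guide 4, with 688, 209 and 143 in the same order.

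The other nucleotide-sugar transporters had scores between -0.11 and 0.75. SLC35A1, which imports CMP-sialic acid, stood at 0.11 ± 0.84 in apilimod and 0.01 ± 0.60 in DMSO. SLC35D1, which carries UDP-glucuronic acid and UDP-N-acetylgalactosamine into the endoplasmic reticulum, stood at 0.10 ± 1.14 and -0.11 ± 0.51 in the same order, and SLC35D2, a carrier of UDP-N-acetylglucosamine, at 0.12 ± 0.37 and 0.13 ± 0.32. SLC35B4, a carrier of UDP-xylose and UDP-N-acetylglucosamine, stood at 0.75 ± 1.44 in apilimod and 0.06 ± 0.53 in DMSO. The PAPS transporters SLC35B2 and SLC35B3 feed the sulfation of heparan sulfate and other glycans in the Golgi apparatus. SLC35B2 held 7794 counts in apilimod, 7147 in DMSO and 7797 in the initial population, with scores of -0.06 ± 0.53 in apilimod and -0.18 ± 0.50 in DMSO. SLC35B3 held 12480, 13594 and 11471 counts in the same order, with scores of 0.08 ± 0.33 and 0.20 ± 0.45, and neither PAPS transporter was called.

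The remaining 13 genes are SLC35 members without a settled substrate, or with one outside nucleotide sugars. SLC35E4, on chromosome 22 (30635781 to 30669016, plus strand), was the second transporter to be lower in both arms. Its 10 guides summed to 6086 counts in apilimod and 7201 in DMSO, against 9403 in the initial population. The score was -0.70 ± 0.60 in apilimod with 9 of 10 guides below the intergenic median, and -0.48 ± 0.44 in DMSO with 10 of 10 below (exact rank-sum test, adjusted p = 0.000113 in apilimod and 0.000488 in DMSO). Guide 10 showed the largest loss in apilimod, with 495 counts there and 726 in DMSO against 1307 in the initial population. Guides 2 and 6 held more counts in apilimod than in the initial population, at 1056 against 928 and at 739 against 599. Against guides of all genes the adjusted p of the same exact test was 0.0675 in apilimod and 0.131 in DMSO, so its calls, unlike those of SLC35B1, held against the intergenic guides alone.

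SLC35E2 and SLC35E3 were lower in apilimod. The 9 scored guides of SLC35E2 summed to 7477 counts in apilimod and 8017 in DMSO, against 8289 in the initial population. Its scores were -0.58 ± 0.67 in apilimod with 8 of 9 guides below the intergenic median and -0.53 ± 1.02 in DMSO with 7 of 9 below (exact rank-sum test, adjusted p = 0.00132 in apilimod and 0.0705 in DMSO). The annotation has no gene of that name on hg38 but holds a coding gene, SLC35E2B, and a transcribed pseudogene, SLC35E2A, both on chromosome 1 (1659529 to 1692795 and 1734690 to 1739557, minus strand), and which of them the guides cut was not tested. Guides 1 and 2 carried most of the loss, with 145 and 260 counts in apilimod and 123 and 121 in DMSO, against 462 and 602 in the initial population. SLC35E3, on chromosome 12 (68746125 to 68793964, plus strand), held 15046 counts in apilimod and 18331 in DMSO, against 14157 in the initial population. Guide 8 alone held 9034, 10977 and 7585 of these in the same order. The scores of SLC35E3, in which each guide weighs the same, were -0.21 ± 0.43 in apilimod with 9 of 10 guides below the intergenic median and -0.02 ± 0.69 in DMSO with 4 below (exact rank-sum test, adjusted p = 0.0281 in apilimod and 0.924 in DMSO). The apilimod call was lost under 3 of 9 other settings.

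SLC35A5 was the single transporter called higher. It lies on chromosome 3 (112561709 to 112585579, plus strand), and its 10 guides summed to 14153 counts in apilimod and 17200 in DMSO, against 11853 in the initial population. Its score was 0.24 ± 0.31 in apilimod, with 4 of 10 guides below the intergenic median, and 0.49 ± 0.39 in DMSO, with 2 below and 8 above (exact rank-sum test, adjusted p = 0.995 in apilimod and 0.0457 in DMSO). Guide 2 was the extreme in DMSO, with 559 counts in apilimod, 1152 in DMSO and 433 in the initial population. The DMSO call was lost when the most extreme guide of each gene was left out.

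The 9 members of this group that passed in neither arm had scores between -0.27 and 0.74 in apilimod and between -0.24 and 0.41 in DMSO. SLC35F1 held 8756 counts in apilimod and 7616 in DMSO, against 5187 in the initial population, with scores of 0.74 ± 0.86 and 0.41 ± 0.50. SLC35F3 was at the other end, at -0.27 ± 0.69 in apilimod and -0.24 ± 0.60 in DMSO. SLC35F2, known as the carrier through which the cytotoxic compound YM155 enters cells, stood at 0.05 ± 0.49 in apilimod and 0.20 ± 0.51 in DMSO. SLC35D3, which in the mouse is needed for the dense granules of platelets, stood at 0.16 ± 0.45 and 0.16 ± 0.42 in the same order. SLC35A4 stood at -0.04 ± 0.47 in apilimod and -0.16 ± 0.70 in DMSO, and SLC35E1 at 0.14 ± 0.57 and 0.06 ± 0.42 in the same order. SLC35C2, to which a part in fucosylation has been ascribed, stood at 0.27 ± 0.48 in apilimod and 0.27 ± 0.30 in DMSO. SLC35F4 held 16845 counts in apilimod, 16739 in DMSO and 13788 in the initial population, the highest sums of the 9, with scores of 0.32 ± 0.38 and 0.15 ± 0.31. SLC35F5 had scores of 0.40 ± 0.99 and 0.12 ± 0.48, the widest spread of these genes in apilimod.

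The direct comparison asked whether knockout of a transporter altered growth in apilimod relative to DMSO. For it, the guide scores of each arm were scaled so that the intergenic guides had a median of 0 and 28 genes of nucleotide synthesis a median of -1, and the z score is the scaled difference, apilimod minus DMSO, centred and then expressed in units of the SD across genes. The test and the guides counted below or above the intergenic median use this scaled difference, whereas log2 ratios are unscaled. None of the 30 transporters was called (0 lower, where 0.573% of all genes were, and 0 higher, where 0.202% were). Over all genes this was 17 lower and 6 higher, or 36 lower and 1 higher without the scaling, and no transporter was called under either. At an unadjusted p under 0.05 the same exact test picked 2 transporters, both lower in apilimod (6.67%), where it picked 313 of all genes (10.5%). The z scores of the transporters had a median of 0.06, where that of all genes was -0.02, and 14 lay below 0 and 16 above. Of the transporter guides 50.9% fell below the intergenic median in this comparison, beside 50.5% of all gene-targeting guides.

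The lowest z scores belonged to SLC29A2, SLC35A5 and SLC35A2, at -1.21, -1.19 and -0.87. For SLC29A2 the log2 ratio of apilimod over DMSO was -0.33 ± 0.63 with 7 of 10 guides below the intergenic median (exact rank-sum test, adjusted p = 0.513), and guides 3 and 10 were the most extreme, with 208 and 363 counts in apilimod against 492 and 885 in DMSO. For SLC35A5 the ratio was -0.25 ± 0.32, and 8 of 10 guides lay below in the scaled difference. Although its unadjusted p was 0.0202, it did not pass the exact rank-sum test after adjustment (adjusted p = 0.336). SLC35A2 had a ratio of -0.30 ± 0.78, and its scaled difference was divided evenly between 5 guides below and 5 above (exact rank-sum test, adjusted p = 0.734). SLC35E3 was the other transporter with an unadjusted p of the exact rank-sum test under 0.05, at 0.0450. Its ratio was -0.19 ± 0.36, with 8 of 10 guides below in the scaled difference (exact rank-sum test, adjusted p = 0.454).

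At the other end SLC35B4, SLC35C1 and SLC35A3 had z scores of 2.26, 1.81 and 1.30, and none passed the test. The mean of SLC35B4 rested on a pair of guides. This gene, on chromosome 7 (134289332 to 134316930, minus strand), summed to 14683 counts in apilimod and 11370 in DMSO, against 9536 in the initial population, and its log2 ratio of apilimod over DMSO was 0.69 ± 1.59, while the median of its guides was -0.16, with 5 below and 4 above the intergenic median (exact rank-sum test, adjusted p = 0.974). Guide 9 held 1565 counts in apilimod, 102 in DMSO and 160 in the initial population, a log2 ratio of 3.96. Guide 10 held 1279, 233 and 171 counts in the same order, a log2 ratio of 2.49. With a minimum of 200 initial counts, which removes both guides, the z score of SLC35B4 was -0.12, and with a minimum of 300 it was 0.11.

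SLC35C1 had a log2 ratio of apilimod over DMSO of 0.42 ± 1.22, with 3 guides below the intergenic median and 7 above (exact rank-sum test, adjusted p = 0.691). Its guide 8 held 963 counts in apilimod, 161 in DMSO and 278 in the initial population, and guide 7 had a ratio of -1.66, so the guides spanned both directions. Its z score was 1.72 without the most extreme guide and 1.60 with a minimum of 200 initial counts. It was -0.50 with a minimum of 300, the 1 alternative of 11 that turned its sign. SLC35A3 had a ratio of 0.46 ± 1.03, with 4 guides below and 5 above (exact rank-sum test, adjusted p = 0.895).

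A log2 ratio of apilimod over DMSO above 2 was seen in 5 transporter guides of 289 (1.73%), in 1.49% of all gene-targeting guides and in 4.11% of intergenic guides. Beside the 3 already given for SLC35B4 and SLC35C1, these were guide 3 of SLC35F1, with 1678 counts in apilimod, 337 in DMSO and 324 in the initial population, and guide 8 of SLC35F5, with 421, 90 and 148 in the same order. All 5 had between 148 and 324 counts in the initial population, below the median guide. A ratio below -2 was seen in 2 transporter guides (0.692%, where 0.877% of all gene-targeting guides were), namely guide 2 of SLC35A2 and guide 3 of SLC28A3, which held 44 counts in apilimod, 250 in DMSO and 204 in the initial population. The spread moved with the initial count. Among guides with 100 to 200 initial counts the SD of the ratio was 1.27 over 19 transporter guides and 1.30 over 20 intergenic guides, and among guides with at least 800 it was 0.37 over 128 and 0.45 over 329. In the low-count range the intergenic guides had a median change of 1.91 in apilimod, against 0.07 for the transporter guides and 0.20 for all gene-targeting guides, and the part of this in the calls above was not tested beyond the count minimums tried.

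The enzymes that act on the cargo of these transporters were listed for comparison. Of 17 measured genes of nucleoside and nucleobase salvage, 4 were lower in apilimod against the initial population (23.5%, below the 29.0% of all genes), 2 were lower in DMSO (11.8%, below 18.9%), and 0 were called in apilimod against DMSO, with median scores of -0.02 in apilimod and 0.04 in DMSO. APRT, which makes AMP from adenine, held 2311 counts in apilimod and 3614 in DMSO against 4862 in the initial population. Its score was -1.70 ± 1.40 in apilimod and -0.72 ± 0.46 in DMSO (exact rank-sum test, adjusted p = 2.66e-09 in apilimod and 7.48e-07 in DMSO). TYMP, thymidine phosphorylase, was lower in both arms at -0.55 ± 0.39 in apilimod and -0.54 ± 0.45 in DMSO. UCKL1, a uridine kinase-like protein, and UPRT were lower in apilimod, at -0.45 ± 0.76 and -0.29 ± 0.56, and had scores of -0.06 ± 0.65 and 0.01 ± 0.58 in DMSO.

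Among enzymes that make nucleotide sugars and PAPS, several were strongly depleted in both arms. Of 29 measured, 13 were lower in apilimod (44.8%, where 29.0% of all genes were) and 8 in DMSO (27.6%, where 18.9% were), with 1 higher in DMSO, and median scores of -0.22 in apilimod and -0.14 in DMSO. GMPPB, MPI and PMM2 are enzymes of the synthesis of GDP-mannose, a donor that is used in making N-glycan precursors. GMPPB had the lowest scores of the list, at -3.22 ± 3.21 in apilimod and -2.85 ± 2.69 in DMSO, MPI stood at -1.62 ± 1.28 and -0.82 ± 0.94, and PMM2 at -1.01 ± 0.71 and -0.34 ± 0.50 in the same order, all called lower in both arms. PGM3, of UDP-N-acetylglucosamine synthesis, was lower in both arms at -1.86 ± 1.67 in apilimod and -1.41 ± 1.21 in DMSO, and GFPT1, which opens that pathway, was lower in apilimod at -1.09 ± 0.92 and had a score of -0.47 ± 0.79 in DMSO. The UDP-N-acetylglucosamine carriers SLC35A3, SLC35B4 and SLC35D2 were called in neither arm.

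GALK1 and UGP2, of galactose use and UDP-glucose synthesis, were lower in both arms, at -0.88 ± 0.88 and -0.87 ± 1.41 in apilimod and at -0.83 ± 0.95 and -1.0 ± 1.16 in DMSO. GALT was higher in DMSO at 0.46 ± 0.20 and had a score of 0.14 ± 0.69 in apilimod. SLC35A2, the importer of UDP-galactose, was not called in any comparison.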

How the data were processed

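Guide counts were measured in 3 libraries of MIA PaCa-2 cells (apilimod, DMSO and the initial population, 1 library each). The authors deposited raw counts per guide, obtained with cutadapt 4.1 for trimming, Bowtie2 2.4.5 for alignment to the library's guides and MAGeCK 0.5.9.5 for counting, as the methods and the submitters' processing notes give them. The notes also name bcl2fastq, with no version given. Counts carry no molecular identifiers and are PCR copies rather than independent cells. The deposited series table and the per-library files differed in 0 values. Guide sequences were not used here, and the study's screen at a higher concentration was not analysed here.

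Guides with at least 100 initial counts (1630 of 30197 removed) and genes with at least 6 such guides were kept, following the study's methods, which left 28042 guides of 2969 genes and 487 intergenic guides. A pseudocount of 1 was added, counts were divided by library totals, and log2 changes were averaged over guides (Python 3.11.15, NumPy 2.4.6, pandas 2.3.3, SciPy 1.17.1). With 1 library per group no count model has residual degrees of freedom. Guides were compared with intergenic guides by the exact two-sided rank-sum test with Benjamini-Hochberg adjustment over all genes. For apilimod against DMSO, arm scores were scaled to medians of 0 for intergenic guides and -1 for the measured 28 of 30 listed nucleotide synthesis symbols, a list that stands in for the essential genes of the study's methods. The reference medians before scaling were -1.61 in apilimod and -1.41 in DMSO. Log2 ratios are unscaled. The test, without the scaling of the arms, was also run on simulated data with known changes. These data drew guide changes from intergenic guides without regard to the initial count.

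Genes given in full were those called with at least 75% of guides on 1 side of the intergenic median, and the 3 lowest and 3 highest by z. SLC29A2 in apilimod against the initial population falls outside the first part. For the enzyme lists, up to 8 called genes were given. A called gene of these lists is not reported here. Genes and guides given beyond this rule were chosen after their values were seen. The transporters and the lists were chosen with earlier results of these data known. Symbols were matched to GENCODE release 44 (hg38), where 29 of 30 were found. The alternatives were other count minimums, fewer guides per gene, a larger pseudocount, median-of-ratios size factors and medians over guides. Further ones were all gene-targeting guides as the comparison, leaving out each gene's most extreme guide, another reference list and no scaling. The guide left out was the furthest on the side of the gene's mean, which by construction moves that mean towards the intergenic median. Intergenic guides were all kept.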

Additional observations from a re-analysis of the deposited data

How the results depend on the processing

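Alternatives that differ from the reported settings in 1 choice were run for the counts of called transporters, of called genes overall and for each transporter described in full, and not for the enzyme lists or the counts of extreme guides. In apilimod against the initial population 7 of 30 transporters and 862 of 2969 genes were called lower. These counts became 4 of 30 and 584 of 2969 when each gene lost its most extreme guide. With a minimum of 300 initial counts they were 3 of 27 and 763 of 2778. SLC28A1, SLC28A2 and SLC29A1 then kept too few guides to be scored. They were 1 of 30 and 219 of 2969 when guides against all genes replaced the intergenic guides. In that last setting 2 transporters and 74 of all genes were called higher in apilimod. In DMSO 1 transporter was lower in place of 4, and 219 of all genes in place of 560. A minimum of 200 added SLC28A1 to those lower in apilimod, and a minimum of 30 added SLC35C1. SLC35B1 was lower in each arm under all 9 alternatives. Among these 9, median-of-ratios size factors and medians over guides cannot change a call against the initial population, for this or any other gene. The 1 transporter higher in DMSO became 0 without the most extreme guide, where 25 of all genes became 6. In apilimod against DMSO 0 transporters were called under every setting, with 0 to 3 at an unadjusted p under 0.05. The z score of SLC35B4 turned to -0.12 with a minimum of 200 initial counts, near 0 as was its 0.11 with 300, and to -0.54 with the median over guides, and that of SLC35C1 turned to -0.50 with a minimum of 300. Over all genes that comparison called 17 lower and 6 higher, 24 and 2 with a minimum of 30 initial counts, 11 and 1 with 200, 30 and 1 with 300, 21 and 2 with a pseudocount of 10, 19 and 2 with complexes III and IV as the reference list, 36 and 1 without scaling, 5 and 1 without the most extreme guide, and 5 and 6 against guides of all genes. Beyond what the settings change by construction, the causes were not tested. No paired analysis was possible because each group is 1 library, and the spread over guides is the only error available. Rare guides limit the precision of SLC28A1, SLC29A1, SLC35B4, SLC35C1 and SLC35F1, among others. The guides of SLC35F1 had a median of 366.5 counts in the initial population.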
